A study of Mus musculus with 16 samples.

Results

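The transcriptional response of lung group 2 innate lymphoid cells (ILC2s) to the alarmin IL-33 was described here by comparing 4 libraries of cells given IL-7 and IL-33 with 4 libraries of cells given IL-7 alone, that is 8 of the 16 libraries of the series. Within each treatment, 2 libraries came from WT mice and 2 from *Pac1*-/- mice, which lack the phosphatase encoded by *Dusp2*. Genotype was a covariate, so that a single effect, an average over the genotypes, was fitted. Such a fit does not show that an effect is present in both genotypes. Mouse lung ILC2s were stimulated for 4 hours with IL-7, with or without IL-33, and a small number of cells was then sorted for each full-length mRNA amplification. The study's methods give 100 ng/mL of each cytokine for ILC2s expanded in culture, and they do not say whether the cells of these libraries were expanded or given the same doses. The other 8 libraries, which received IL-33 together with the neuropeptide CGRP or NMU, entered only where stated. The study's methods list the *Pac1*-/- mice apart from its conditional knockout line, and no Cre driver is named for them. The methods give an age range for the mice of all animal experiments. The labels give no age and do not say whether replicates came from separate mice or cultures. *P* values therefore measure only the spread between these libraries, which may be technical.

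ILC2s are tissue-resident lymphocytes without antigen receptors, and they are known for the rapid release of IL-5, IL-13, and amphiregulin after tissue damage. IL-33 is released by damaged epithelium and binds ST2 (encoded by *Il1rl1*) paired with IL1RAP. The adaptor MYD88 and the IRAK kinases then carry the signal to NF-kB and to the MAP kinases. IL-7 acts through a different route, JAK kinases and STAT5, and maintains ILC2s in culture.

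Total gene counts ranged from 9665251 to 15963357, and the treatments differed in this total by less than the spread between libraries (*P* = 0.543 by an exact permutation test, two-sided, with 4 libraries in each treatment). Levels are given as CPM, counts relative to the library total, scaled with TMM factors. A floor of 3 counts equaled 0.178 to 0.31 CPM on this scale and covers counting error only. The targeted gene *Dusp2* had 57 counts in WT IL-7 replicate 2 and 0 in the other 7 libraries, which is too few to check the genotypes. The ILC2 markers *Gata3* (at least 562 CPM), *Rora* (at least 888 CPM), and *Il1rl1* (at least 542 CPM) were present in every library, whereas *Ptgdr2*, which encodes CRTH2, was at 0 in 6 of the 8 and at most 0.274 CPM. Across genes, the correlation of log2 CPM was 0.805 to 0.845 between replicates of the same group and 0.786 to 0.823 between libraries of different treatments. Within a treatment it was 0.793 to 0.81 with IL-7 and 0.811 to 0.871 with IL-33, so the highest value lay between genotypes. The *Pac1*-/- IL-33 libraries had 16211 and 15497 genes with any count, against 13661 to 14286 in the other 6 libraries.

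With IL-33, 6 genes passed the cutoff (fold change above 1.5 and adjusted *P* under 0.05 by the quasi-likelihood test of edgeR, Benjamini-Hochberg adjusted), and all 6 fell. They were *Klrc1*, *Klrd1*, *Klrk1*, and *Klra9*, which encode lectin-like receptors best known from NK cells, *Ms4a4b*, which encodes a membrane protein of lymphocytes, and *Cd3d*, which encodes a chain of the T cell receptor complex. The 6 genes were 0.0462% of the 12980 tested. The number called higher was 0 (0%), although 683 genes (5.26%) had a higher level at an unadjusted *P* value under 0.05 and 678 (5.22%) a lower one. DESeq2's Wald test on the same libraries called 237 genes higher (1.86% of 12741) and 283 lower (2.22%), including all 6 of the genes called by edgeR. In what follows, called refers to edgeR unless DESeq2 is named. The median log2 fold change over all tested genes was 0.09, and the list medians below are read beside it. List counts at an unadjusted *P* under 0.05 or called by DESeq2 are read beside the shares above.

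*Klrc1* (ENSMUSG00000030167, GRCm38 chromosome 6 from 129666015 to 129678973) encodes the inhibitory receptor NKG2A. With IL-7 its level was 88.8 and 115.5 CPM in the WT libraries and 89.2 and 71.9 CPM in the *Pac1*-/- libraries. With IL-33 it had 0 counts in all 4 libraries, against 4381 counts over the 4 IL-7 libraries, so that the treatments did not overlap. Against a floor of 3 counts per library, *Klrc1* was at least 376-fold lower with IL-33 (adjusted *P* = 0.00609, edgeR). *Klrd1* (chromosome 6 from 129591782 to 129598775) encodes CD94, the partner chain of NKG2A. It had 42.6 and 42.0 CPM in the WT and 47 and 72 CPM in the *Pac1*-/- IL-7 libraries and 0 counts in every IL-33 library. Both chains of this receptor were thus detected in each IL-7 library and in no IL-33 library, and *Klrd1* was at least 209.5-fold lower (adjusted *P* = 0.0173, edgeR).

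*Klrk1* (chromosome 6 from 129610323 to 129623864) encodes the activating receptor NKG2D. Its IL-7 levels were 57.9 and 70.6 CPM in WT and 57.4 and 62.3 CPM in *Pac1*-/- libraries, a narrow range. With IL-33 they were 0 and 0.103 CPM in WT and 0.0592 and 0.682 CPM in *Pac1*-/- libraries, a log2 fold change of -8.32 (95% CI, -10.29 to -6.34, adjusted *P* = 0.0197, edgeR), and -9.99 without *Pac1*-/- IL-33 replicate 2. The IL-33 libraries together held 10 counts, and only *Pac1*-/- replicate 2 lay above the floor, so the size of this fold is uncertain. *Klra9* (chromosome 6 from 130178675 to 130193112) belongs to the Ly49 receptors. Its IL-7 levels were 23.5, 12.4, 17.4, and 16.8 CPM. The 4 IL-33 libraries together held 2 counts against 871, a ratio of 462 (95% exact interval for counting error, 128 to 3823, adjusted *P* = 0.0495, edgeR). Ly49 genes are near-identical copies of each other, and how reads matching several genes were counted is not given in the sources used here, so the value of a single Ly49 gene is uncertain.

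*Ms4a4b* (chromosome 19) was the most abundant of the 6. It had 373.7 and 422.4 CPM in the WT and 448.6 and 323 CPM in the *Pac1*-/- IL-7 libraries. With IL-33 it had 3.29 and 0 CPM in WT and 0 and 0.341 CPM in *Pac1*-/- libraries, and the log2 fold change was -8.99 (95% CI, -11.34 to -6.63, adjusted *P* = 0.0332, edgeR). Without WT IL-33 replicate 1, which held 43 of its 47 counts with IL-33, the value for *Ms4a4b* was -11.74. *Cd3d* (chromosome 9 from 44981786 to 44987339) remained detectable with IL-33. It went from 75.9 and 80.9 CPM in WT and 107.1 and 80.7 CPM in *Pac1*-/- libraries to 11.5 and 14.4 CPM and to 8.23 and 3.83 CPM. The log2 fold change of *Cd3d* was -3.27 (95% CI, -4.21 to -2.33, adjusted *P* = 0.0495, edgeR).

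**Figure D1:**
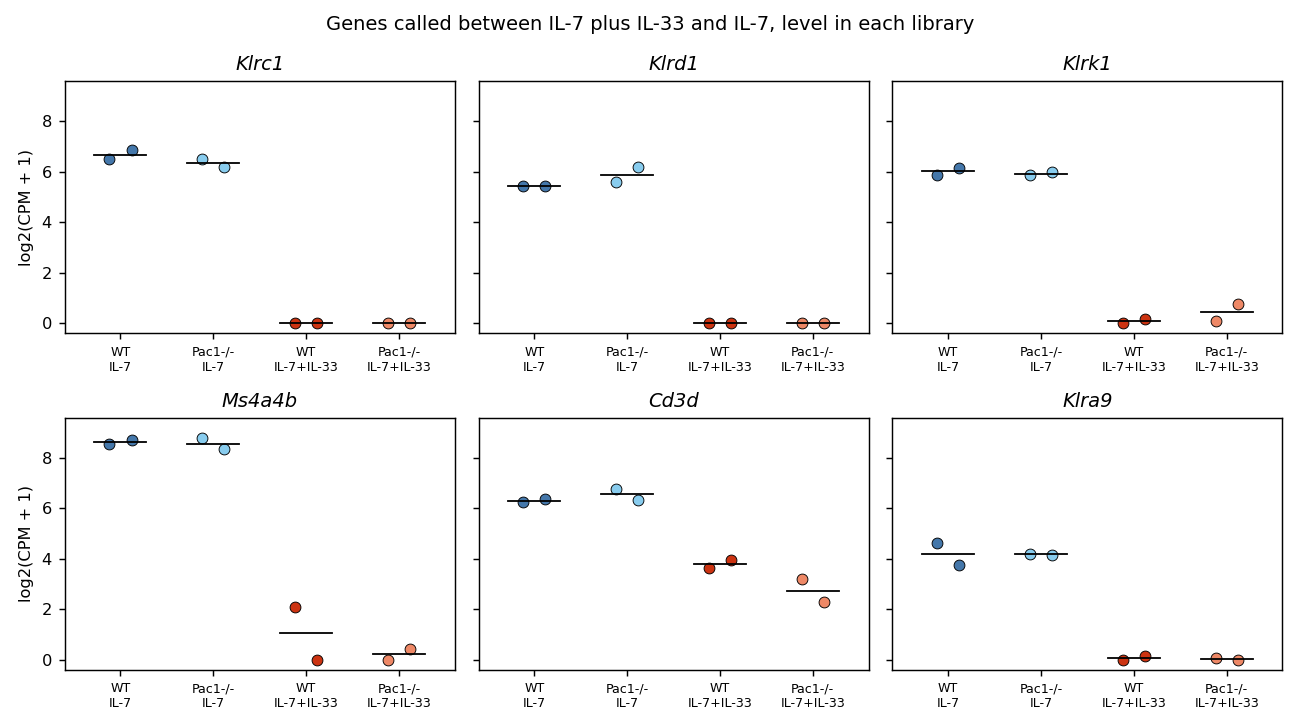
Level of the 6 called genes in each library, as log2(CPM + 1) on the vertical axis, by genotype and treatment on the horizontal axis. Each point is 1 library and each horizontal line the mean of 2 replicates. In every panel the 4 IL-33 libraries sit below the 4 IL-7 libraries, with *Klrc1* and *Klrd1* at 0 in all 4.

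Promoter windows (RefSeq, GRCm38.p6, 250 bases before to 50 bases after the start) were found for 5 of the 6 called genes, which changed in the same direction. Those of *Klrc1*, *Klrk1*, and *Ms4a4b* are shown. Those of *Cd3d* and *Klra9*, which hold no match, are not, so the shown set holds a larger share of matches. Capitals mark matches, on either strand, to a kB motif (GGG and TTCC separated by any 3 bases), an AP-1 motif (TGANTCA), or a CRE (TGACGTCA), which bind factors downstream of IL-33 and of cAMP. *Klrc1* (chr6:129678924-129679223, minus strand) has no match, and *Klrk1* (chr6:129623815-129624114, minus strand) and *Ms4a4b* (chr19:11443308-11443607, plus strand) each have 1 AP-1 match. *Nfkbia* (chr12:55492598-55492897, minus strand), a known NF-kB target that was not called, was added for contrast after its values were seen and has 1 kB match.
*Klrc1*: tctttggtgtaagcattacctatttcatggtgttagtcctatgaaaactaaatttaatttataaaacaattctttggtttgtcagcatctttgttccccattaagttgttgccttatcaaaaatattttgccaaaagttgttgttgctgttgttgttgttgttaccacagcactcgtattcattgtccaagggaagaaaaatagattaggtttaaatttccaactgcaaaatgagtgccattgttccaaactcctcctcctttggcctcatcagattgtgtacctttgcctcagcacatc
*Klrk1*: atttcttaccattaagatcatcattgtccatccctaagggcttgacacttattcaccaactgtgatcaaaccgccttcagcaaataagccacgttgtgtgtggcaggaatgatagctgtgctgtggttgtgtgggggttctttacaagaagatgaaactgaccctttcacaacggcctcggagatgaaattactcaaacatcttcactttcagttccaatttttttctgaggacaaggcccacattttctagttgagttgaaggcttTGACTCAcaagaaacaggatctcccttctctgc
*Ms4a4b*: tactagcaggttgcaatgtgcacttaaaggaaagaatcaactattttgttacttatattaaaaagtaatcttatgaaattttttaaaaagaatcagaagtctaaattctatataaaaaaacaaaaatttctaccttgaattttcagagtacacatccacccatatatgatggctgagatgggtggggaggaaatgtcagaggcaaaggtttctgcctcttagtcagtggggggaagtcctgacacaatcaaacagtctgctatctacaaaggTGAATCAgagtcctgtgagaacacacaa
*Nfkbia*: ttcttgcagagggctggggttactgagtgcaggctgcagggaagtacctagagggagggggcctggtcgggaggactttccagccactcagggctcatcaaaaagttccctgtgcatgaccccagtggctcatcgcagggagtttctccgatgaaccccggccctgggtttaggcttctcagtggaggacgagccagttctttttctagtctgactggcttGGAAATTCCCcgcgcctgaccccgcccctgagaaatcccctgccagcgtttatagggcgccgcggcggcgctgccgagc
Of the 11317 promoter windows of tested genes, 6.27% hold the kB motif, 5.13% the AP-1 motif, and 3.13% the CRE. *Cd3d* and *Klra9* have no match to any of the 3. A match is a run of letters and not a binding site.

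The genes of the NK gene complex on chromosome 6 were examined after these values were seen. Between 128778485 and 130386874, 13 protein-coding *Klr* genes were tested, which leaves out the pseudogene *Klra13-ps*. Of the 13, 8 were lower in every IL-33 library than in any IL-7 library and 9 had 0 counts in all IL-33 libraries. Of all 12980 genes tested, 2.93% were lower without overlap and 3.1% were higher. The 9 genes at 0 counts with IL-33 passed the expression filter only through the IL-7 libraries, so they could only come out lower. Over all chromosomes, 14 of 26 protein-coding *Klr* genes passed the filter. The counts are therefore a description and not a comparison with the shares over all genes. *Klre1*, which encodes a receptor of NK cells, had 37.7, 15.3, 41.6, and 10.4 CPM with IL-7 and 0 counts in each IL-33 library. *Klra7* had 54.4, 10.3, 35.7, and 16.8 CPM with IL-7 and likewise 0 counts. Neither passed the cutoff (adjusted *P* = 0.114 for each, edgeR). Other genes of the same stretch were not called. *Klrb1b* had a mean of 10 CPM with IL-7 and 11.5 CPM with IL-33. *Cd69*, the early activation marker encoded between them, had 217 and 214 CPM. *Klrg1*, a lectin-like receptor of ILC2s that lies outside this stretch, had 1320, 975, 794, and 825 CPM with IL-7 and 1617, 1548, 1682, and 657 CPM with IL-33 (log2 fold change 0.50, 95% CI, -0.10 to 1.09, adjusted *P* = 0.569, edgeR).

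Among the genes lower in every IL-33 library that did not pass the cutoff, 5 were named after their values were seen, and DESeq2 called all 5. *Gzma*, which encodes granzyme A, had 115.2, 134, 231.8, and 220.8 CPM with IL-7. With IL-33 it had 0 counts in 3 libraries and 4.68 CPM in *Pac1*-/- replicate 1 (adjusted *P* = 0.126, edgeR). *Ccl5*, a T cell chemoattractant, had 510.5, 346.7, 570.9, and 490 CPM with IL-7 and 58.5, 114.2, 22.3, and 14.5 CPM with IL-33 (log2 fold change -3.57, adjusted *P* = 0.128). *Xcl1*, which encodes lymphotactin, had 831 counts over the IL-7 libraries and 0 over the IL-33 libraries (adjusted *P* = 0.143, edgeR). *Tyrobp*, which encodes the DAP12 adaptor of activating NK receptors, had 22.7 to 44.9 CPM with IL-7 and 0 to 1.79 CPM with IL-33 (adjusted *P* = 0.143, edgeR). *Sh2d1a*, which encodes the adaptor SAP, had 7.66 to 40.8 CPM with IL-7 and 0 counts with IL-33 (adjusted *P* = 0.104, edgeR).

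The T cell receptor gamma and delta genes were also examined after their values were seen. Of 21 such genes, 15 passed the expression filter and were tested. All 15 had a negative fitted log2 fold change, as did 5908 of the 12980 genes tested. At least 2 of the 15 had 0 counts in every IL-33 library and passed the filter only through the IL-7 libraries. Their sign was thus fixed by the filter. Of the 15, 4 were lower without overlap, against 2.93% of all genes. With edgeR 0 were called and 6 were lower at an unadjusted *P* under 0.05 (5.22% of all genes were), and DESeq2 called 5 lower (2.22% of all genes were). *Tcrg-C2*, a constant gene of the gamma chain, had 22.4, 41.4, 47.2, and 67.8 CPM with IL-7 and 6.65, 4.23, 1.95, and 2.13 CPM with IL-33 (adjusted *P* = 0.143, edgeR). *Trdc*, the delta constant gene, had 7.94 and 9.46 CPM in WT and 56 and 48.1 CPM in *Pac1*-/- IL-7 libraries, and 1.3 and 0.723 CPM and 15.3 and 12.3 CPM in the matching IL-33 libraries. *Trdv4*, a delta variable gene, had 211.9, 234.5, 119.5, and 130 CPM with IL-7 and 216.6, 222.7, 91.9, and 50.4 CPM with IL-33, and its treatments overlapped.

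Markers of other cell types were summed for each library. The summed level of the 10 ILC1, NK, and ILC3 markers was 228 to 437 CPM with IL-7 and 6.22 to 27.2 CPM with IL-33, without overlap. The exact permutation *P* was 0.0286 (two-sided, *n* = 4 libraries per treatment), which is the smallest this design can give, and 0.0763 after adjustment over 8 lists. Most of that sum came from *Gzma*, *Nkg7*, and *Klrd1*, and 4 of the 7 members tested were lower without overlap, against 2.93% of all genes. The lineage factor *Tbx21* was at 0 in all 8 libraries, *Eomes* was at most 2.74 CPM, and *Ncr1* at most 2.82 CPM. *Ncr1* had 31 counts over the IL-7 libraries and 1 over the IL-33 libraries. *Klrb1c*, another member of this list, had 394 and 0 counts, without overlap (adjusted *P* = 0.275, edgeR). The 8 T cell markers summed to 248 to 355 CPM with IL-7 and 35.3 to 164 CPM with IL-33 (exact permutation *P* = 0.0286, 0.0763 after adjustment). These lists hold the called genes *Klrd1* and *Cd3d* and were chosen with earlier results of these data known. Their *P* values are therefore not independent of the calls. *Cd4* and *Cd8a* were at 0 in all 8 libraries, and *Cd3g* had 164 to 264 CPM with IL-7 against 31.2 to 148.5 CPM with IL-33. The study's methods remove most T and NK cells with magnetic beads before ILC2s are sorted. The sources used here do not say whether cells of both treatments came from a single sort or culture, so a difference between sorts or cultures and the effect of IL-33 cannot be told apart. Whether these transcripts came from ILC2s or from other cells was not tested, and fewer cells of a type and less RNA per cell cannot be told apart in bulk libraries.

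The remaining marker sums were small. The 9 lung epithelial markers summed to 15.2 to 42.1 CPM with IL-7 and 43.6 to 86.6 CPM with IL-33 (exact permutation *P* = 0.0286, 0.0763 after adjustment, and 0.0571 on a log scale or without any 1 IL-7 library), and almost all of this was *Epcam*, at 14.8 to 39.5 CPM and 40.7 to 84.1 CPM. *Sftpc*, *Sftpb*, *Scgb3a2*, *Krt8*, and *Krt18*, which define lung epithelium, were at 0 in all 8 libraries. The 6 B cell markers summed to at most 45 CPM, the 12 myeloid markers to at most 40.3 CPM, the 8 mast cell and basophil markers to at most 80.3 CPM, and the 10 endothelial and stromal markers to at most 53.9 CPM in any library, with exact permutation *P* values of 0.171, 0.743, 0.143, and 0.314. The 26 ILC2 identity genes summed to 19950 to 21270 CPM with IL-7 and 17270 to 21900 CPM with IL-33 (exact permutation *P* = 0.971).

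**Figure D2:**
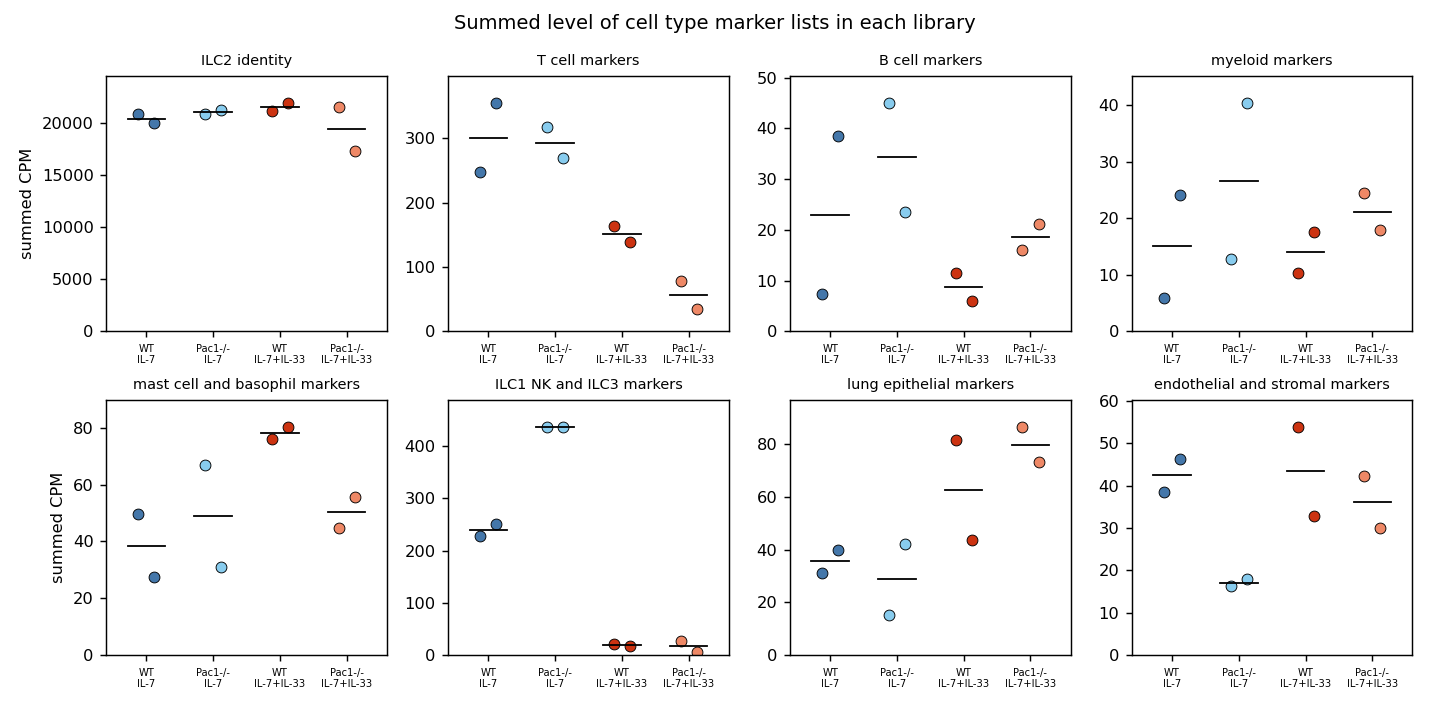
Summed CPM (vertical axis, from 0) of 8 cell type marker lists in each library, by genotype and treatment. Each point is 1 library and each horizontal line the mean of 2. The IL-7 and IL-33 libraries do not overlap for the ILC1, NK, and ILC3 list (228 to 437 against 6.22 to 27.2 CPM), the T cell list, or the lung epithelial list, and the ILC2 list overlaps (19950 to 21270 against 17270 to 21900 CPM).

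In the 8 libraries that received IL-33 together with CGRP or NMU, scaled with all 16 libraries, *Gzma*, *Sh2d1a*, and *Klra9* had 0 CPM in every library. *Klrc1* was at 16.2 and 13.6 CPM in the WT libraries with CGRP and at 0 in the other 6. *Klrd1* followed the same libraries, with 22.7 and 5.46 CPM in WT cells given CGRP and 0 elsewhere. *Ms4a4b* ranged from 0 to 95.1 CPM and *Cd3d* from 2.35 to 27.4 CPM, in each case under the lowest IL-7 library as scaled above. *Klrk1* ranged from 0 to 10.1 CPM, against means of 62.1 CPM with IL-7 and 0.211 CPM with IL-33 as scaled above. *Tcrg-C2* was at 28.6 and 26.5 CPM in the *Pac1*-/- libraries with CGRP, within its IL-7 range as scaled above. It was at most 6.69 CPM in the other 6. *Tyrobp* was at 54.2 and 53.4 CPM in the *Pac1*-/- libraries with CGRP, above its highest value with IL-7 alone (44.9 CPM as scaled above).

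The cytokine genes were the next question, since IL-33 is known as a strong inducer of type 2 cytokines. Of 18 listed cytokines, 13 were tested and 0 passed the cutoff, with 3 lower at an unadjusted *P* under 0.05 and 1 called lower by DESeq2. Their median log2 fold change was 0.07, against 0.09 for all genes. *Il5*, the eosinophil growth factor, was already among the most abundant transcripts with IL-7. Its level was 6216 and 5418 CPM in WT and 5959 and 6100 CPM in *Pac1*-/- libraries with IL-7, and 6517 and 7860 CPM and 7532 and 5424 CPM with IL-33. The treatments overlapped, and the log2 fold change was 0.20 (95% CI, -0.14 to 0.55, adjusted *P* = 0.753, edgeR).

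*Il13*, which drives mucus and airway hyperreactivity, was low throughout. It had 23.6, 5.68, 11.3, and 18 CPM with IL-7 and 19.2, 31.5, 33.6, and 40.4 CPM with IL-33 (log2 fold change 1.06, 95% CI, -0.08 to 2.21, adjusted *P* = 0.505, edgeR). The overlap came from WT replicate 1, which was higher with IL-7 than with IL-33. *Il4* had 23.1, 27.3, 17.8, and 38 CPM with IL-7 and 11.6, 6.09, 9.35, and 8.69 CPM with IL-33. It was lower in all 4 IL-33 libraries (log2 fold change -1.57, 95% CI, -2.61 to -0.53), but the adjusted *P* value was 0.361 with edgeR and 0.00258 with DESeq2. *Il9*, a growth factor for mast cells and ILC2s, had 304.7, 292.2, 316.9, and 323.9 CPM with IL-7 and 208.5, 297.5, 132.2, and 101.3 CPM with IL-33. The WT range with IL-33 reached the IL-7 levels and the *Pac1*-/- range did not (log2 fold change -0.24 in WT and -1.46 in *Pac1*-/- libraries, not tested against each other, adjusted *P* = 0.38 for the effect averaged over genotypes, edgeR).

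*Areg*, which encodes the repair factor amphiregulin, had 85.3, 140, 124.2, and 116.4 CPM with IL-7 and 106.8, 112.6, 137.5, and 135.5 CPM with IL-33 (log2 fold change 0.07, 95% CI, -0.41 to 0.56). *Csf2*, which encodes GM-CSF, had 1151 to 1517 CPM with IL-7 and 659 to 1740 CPM with IL-33 (log2 fold change -0.36, 95% CI, -0.87 to 0.16). *Il6* had 241.5 to 538.3 CPM and 244.3 to 458.2 CPM (log2 fold change 0.02, 95% CI, -0.47 to 0.52). The levels of these 3 genes overlapped between treatments. *Calca*, which encodes the neuropeptide CGRP itself, was near *Il5* in abundance with IL-7, and *Calca* stood at 5889 to 6619 CPM with IL-7 and 2547 to 6140 CPM with IL-33 (log2 fold change -0.50, 95% CI, -0.97 to -0.03, adjusted *P* = 0.455, edgeR). *Ifng*, *Il10*, *Il17a*, *Il21*, and *Il3* were too low to be tested.

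**Figure D3:**
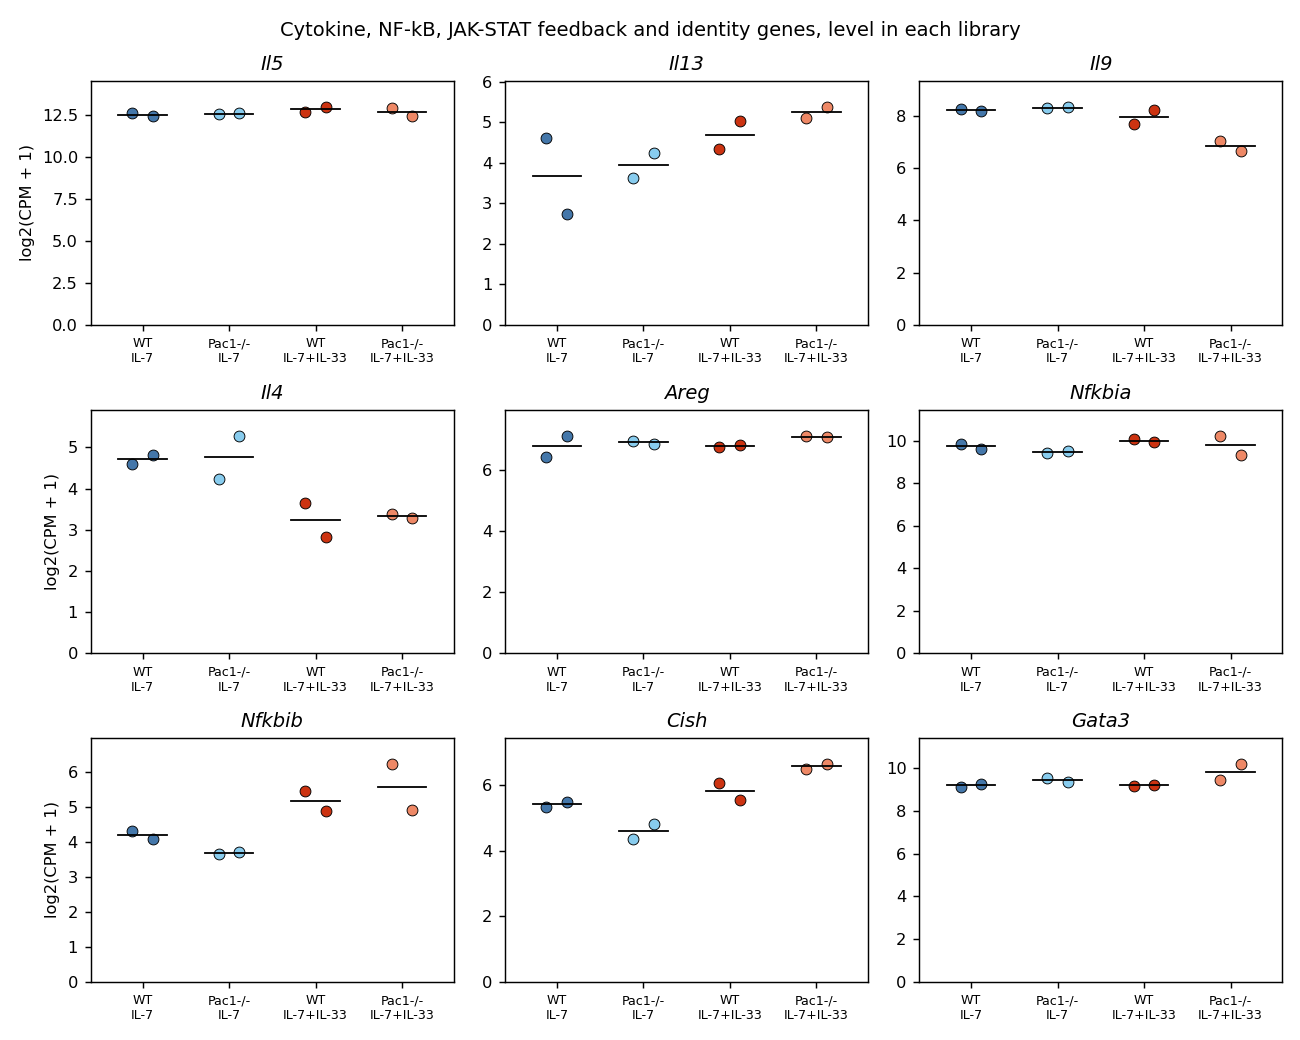
Level of 5 cytokine genes, 2 NF-kB inhibitors, *Cish*, and *Gata3* in each library, as log2(CPM + 1) on a vertical axis from 0. Each point is 1 library and each horizontal line the mean of 2 replicates. *Il5*, *Areg*, *Nfkbia*, and *Gata3* overlap between treatments, *Il4* is lower in all 4 IL-33 libraries, and *Nfkbib* and *Cish* are higher in all 4; none of the 9 passed the cutoff.

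Among 17 listed chemokines, 9 were tested and 0 were called by edgeR, with 1 higher and 2 lower at an unadjusted *P* under 0.05 (5.26% and 5.22% of all genes were). DESeq2 called the same 3, *Cxcl10* higher and *Ccl5* and *Xcl1* lower. *Cxcl10*, an interferon-inducible chemokine, had 7.05, 2.18, 11, and 16.6 CPM with IL-7 and 13.5, 22.9, 79.8, and 21 CPM with IL-33 (log2 fold change 1.92, adjusted *P* = 0.361 with edgeR and 0.026 with DESeq2). *Ccl1*, a ligand of CCR8, was higher in every WT than in any *Pac1*-/- library, at 1121 and 938 CPM in WT and 415 and 444 CPM in *Pac1*-/- IL-7 libraries and 879 and 1264 CPM and 574 and 395 CPM with IL-33 (log2 fold change 0.12, adjusted *P* = 0.938, edgeR).

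The receptor chain and its adaptors were tested in full, and 0 of 19 were called by edgeR, with 2 higher at an unadjusted *P* under 0.05 and 1 called higher by DESeq2. *Il1rl1*, the ST2 chain, had 865, 986, 811, and 789 CPM with IL-7 and 622.5, 1048, 541.8, and 971 CPM with IL-33 (log2 fold change -0.11, 95% CI, -0.63 to 0.40). *Il1rap*, its partner, had 9.04, 0, 1.82, and 19.2 CPM with IL-7 and 19.1, 27.2, 17.3, and 15.9 CPM with IL-33 (95% CI of the log2 fold change, -1.28 to 4.29, adjusted *P* = 0.789, edgeR). *Myd88*, the adaptor, was the member of this list whose treatments did not overlap. It had 13.3, 20.4, 18, and 16.1 CPM with IL-7 and 29.1, 36.2, 82.4, and 27.9 CPM with IL-33 (log2 fold change 1.32, 95% CI, 0.36 to 2.29, adjusted *P* = 0.378 with edgeR and 0.0476 with DESeq2). The list held 1 gene of 19 higher without overlap and 0 lower, against 3.1% and 2.93% of all genes.

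The NF-kB subunits and their inhibitors were examined as the readout of the pathway, because several of them are themselves NF-kB targets. Of the 5 subunits, 0 were called by either tool and 0 had an unadjusted *P* under 0.05. *Nfkb1* (p105) had a log2 fold change of -0.08 (95% CI, -0.63 to 0.47) and *Nfkb2* (p100) of 0.22 (95% CI, -0.82 to 1.26). *Rel* had 0.20 (95% CI, -0.74 to 1.14), *Rela* 0.54 (95% CI, -0.40 to 1.48), and *Relb* 0.69 (95% CI, -0.35 to 1.74) as log2 fold changes, and the treatments overlapped for all 5. In WT and *Pac1*-/- libraries the values were -0.23 and 0.07 for *Nfkb1*, -0.20 and 0.64 for *Nfkb2*, and -0.67 and 1.07 for *Rel*. They were 0.18 and 0.90 for *Rela* and 0.11 and 1.28 for *Relb*. The genotypes were not tested against each other. Of the 16 inhibitors and regulators, 0 were called by edgeR, 2 were higher at an unadjusted *P* under 0.05, and DESeq2 called 1 higher. Of the 16, 2 were higher without overlap, against 3.1% of all genes. *Nfkbia*, which encodes the inhibitor IkBa, had 932.5, 785.2, 686.9, and 727.1 CPM with IL-7 and 1075, 976.9, 1216, and 651.6 CPM with IL-33 (log2 fold change 0.33, 95% CI, -0.13 to 0.79, adjusted *P* = 0.669, edgeR). *Tnfaip3*, which encodes the deubiquitinase A20, had 291.3 to 364.2 CPM with IL-7 and 285.6 to 477 CPM with IL-33 (log2 fold change 0.12, 95% CI, -0.36 to 0.60).

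*Nfkbib*, which encodes the inhibitor IkBb, had 18.8, 15.9, 11.7, and 12.1 CPM with IL-7 and 43, 28.8, 74.2, and 29.4 CPM with IL-33. All 4 IL-33 libraries were above all 4 IL-7 libraries, and the log2 fold change was 1.59 (95% CI, 0.60 to 2.57, adjusted *P* = 0.361 with edgeR and 0.0105 with DESeq2). *Otulin*, a deubiquitinase of linear chains, was the other, with 27.5, 11.4, 38.9, and 42.9 CPM with IL-7 and 56.8, 64, 51.4, and 72.1 CPM with IL-33 (log2 fold change 1.11, adjusted *P* = 0.395, edgeR). The medians of the subunit and inhibitor lists were 0.22 and 0.17, against 0.09 for all genes.

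Feedback of the JAK-STAT pathway, which IL-7 engages in both treatments, had the highest median of the pathway lists, 0.56 over 11 genes. Of the 11, 10 had a positive log2 fold change, as did 7072 of the 12980 genes tested. With edgeR 0 were called and 2 were higher at an unadjusted *P* under 0.05, and DESeq2 called 1 higher. *Cish*, a STAT5 target that limits cytokine receptor signaling, had 40, 44.3, 19.8, and 27.1 CPM with IL-7 and 66, 46.6, 90.6, and 99.8 CPM with IL-33, without overlap (log2 fold change 1.22, 95% CI, 0.36 to 2.08, adjusted *P* = 0.369 with edgeR and 0.0485 with DESeq2). *Socs1* had 3.91 to 25.1 CPM and 8.05 to 52 CPM (log2 fold change 0.69, 95% CI, -1.32 to 2.69), and *Socs2* had 75 to 175 CPM and 92.7 to 152.5 CPM (log2 fold change 0.18, 95% CI, -0.30 to 0.66). *Socs3* was at or under 1.39 CPM in every library (log2 fold change 1.41, 95% CI, -3.67 to 6.48). The levels of these 3 genes overlapped between treatments. In WT and *Pac1*-/- libraries the log2 fold changes were 0.42 and 2.02 for *Cish* and -0.86 and 2.23 for *Socs1*. They were -0.03 and 0.38 for *Socs2* and 4.01 and -0.13 for *Socs3*. The genotypes were not tested against each other.

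Other early response genes were not called. *Myc* had 11.7 to 29 CPM with IL-7 and 11.5 to 32 CPM with IL-33 (log2 fold change 0.31, 95% CI, -0.81 to 1.42). *Fos* had 81.4, 72.1, 96.2, and 49.8 CPM with IL-7 and 44.1, 25.4, 45.5, and 51 CPM with IL-33 (log2 fold change -0.87, adjusted *P* = 0.411, edgeR). *Nr4a1*, an orphan receptor induced by activation, had 36.6, 41.6, 68.3, and 75.9 CPM and 60.7, 84.7, 89.7, and 178.1 CPM (log2 fold change 0.89, adjusted *P* = 0.364 with edgeR and 0.0441 with DESeq2). *Ptgs2*, which encodes cyclooxygenase 2, had 0.182 to 18.7 CPM and 12.6 to 41.6 CPM (log2 fold change 1.18, 95% CI, -1.04 to 3.39). Without *Pac1*-/- IL-7 replicate 2 the value for *Ptgs2* was 3.02 (adjusted *P* = 0.416, edgeR). Of 10 AP-1 and BATF genes tested, 14 immediate early genes, and 9 ERK feedback genes, 0 were called by edgeR. At an unadjusted *P* under 0.05, 1 AP-1 gene was higher and 1 lower, 1 immediate early gene was higher, and 0 ERK feedback genes differed. DESeq2 called 1 gene of each of the first 2 lists higher, *Fosl1* and *Nr4a1*. *Fosl1*, a FOS family subunit of AP-1, had 0, 0, 0.546, and 1.63 CPM with IL-7 and 5.88, 3.10, 9.06, and 1.96 CPM with IL-33, without overlap (adjusted *P* = 0.451 with edgeR and 0.0182 with DESeq2).

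The 25 tested members of the identity list had a median log2 fold change of 0.19. With either tool 0 were called, 1 was higher at an unadjusted *P* under 0.05 with edgeR, and 0 were without overlap in either direction. *Gata3*, the lineage factor, had 562, 615, 751, and 660 CPM with IL-7 and 578, 600, 705, and 1170 CPM with IL-33 (log2 fold change 0.21, 95% CI, -0.24 to 0.65). *Rora* had a log2 fold change of 0.07 (95% CI, -0.36 to 0.50), *Icos* of -0.01 (95% CI, -0.36 to 0.35), and *Il2ra*, the CD25 chain, of -0.10 (95% CI, -0.43 to 0.23). *Il7r*, the receptor for IL-7, had 817 to 1089 CPM with IL-7 and 621 to 961.5 CPM with IL-33 (log2 fold change -0.32, 95% CI, -0.69 to 0.05). *Arg1*, an arginase that supports ILC2 metabolism, had 248.3, 155.5, 122.8, and 152.5 CPM with IL-7 and 385.4, 284.6, 284.1, and 145.6 CPM with IL-33 (log2 fold change 0.69, 95% CI, 0.10 to 1.28, adjusted *P* = 0.427, edgeR). Of the 4 IL-33 libraries, 3 were above all IL-7 libraries, and *Pac1*-/- replicate 2 lay within the IL-7 range.

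**Figure D4:**
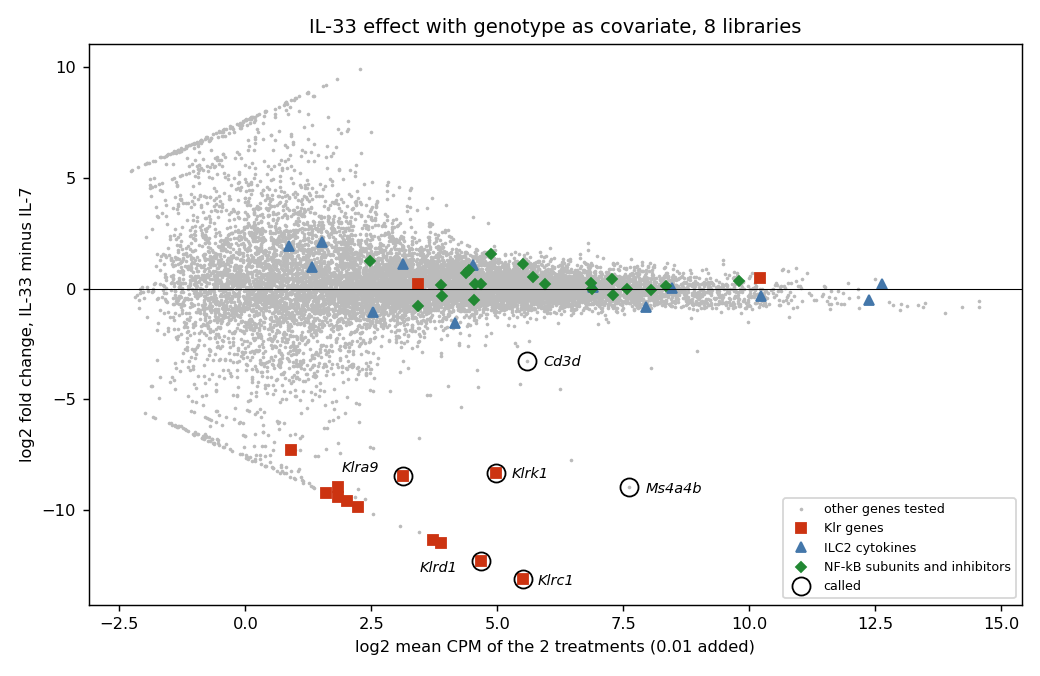
Fitted log2 fold change (vertical axis, IL-33 minus IL-7) against log2 mean CPM (horizontal axis) of the 12980 genes tested. *Klr* genes, ILC2 cytokines, and NF-kB subunits and inhibitors are marked, and circles mark the 6 called genes, all below 0. Genes at 0 counts in 1 treatment lie along the slanted edges, where the fitted value depends on the added prior count and is not a measured fold.

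Of the remaining lists, the polyamine and amino acid supply list had a median log2 fold change of 0.40 over 15 genes and the Myc and ribosome biogenesis list of 0.50 over 19. With edgeR 0 were called in each, and 4 and 2 were higher at an unadjusted *P* under 0.05, while DESeq2 called 1 and 0 higher. *Odc1*, the first enzyme of polyamine synthesis, had 564, 930, 826, and 858 CPM with IL-7 and 1293, 894, 1630, and 1516 CPM with IL-33 (log2 fold change 0.73, 95% CI, 0.26 to 1.19, adjusted *P* = 0.361, edgeR). *Slc6a6*, the taurine transporter, had 9.13 to 20.9 CPM and 24.1 to 59.4 CPM, without overlap (adjusted *P* = 0.369 with edgeR and 0.04 with DESeq2). *Ncl*, which encodes nucleolin, had 419.5 to 523.7 CPM and 564.7 to 726.3 CPM, also without overlap (log2 fold change 0.41, 95% CI, 0.07 to 0.76, adjusted *P* = 0.416, edgeR). The glycolysis and hypoxia list had a median of 0.23 over 21 genes, with 0 called by either tool and 3 higher at an unadjusted *P* under 0.05, and *Ldha*, the lactate dehydrogenase chain, had 927 to 1415 CPM and 1295 to 2641 CPM (log2 fold change 0.83, adjusted *P* = 0.364, edgeR). In both genotypes its IL-33 level was highest in replicate 1, with 2544 and 2641 CPM against 1729 and 1295 CPM in replicate 2, and *Eno1* had 175.5 and 286.3 CPM against 67.3 and 69.2 CPM.

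Chaperones, the respiratory chain, and ribosomal proteins were grouped by their symbols after their values were seen. The fold changes of these groups are descriptions, and many of these genes have near-identical processed copies. Of 65 chaperone genes tested, 9 were higher without overlap (3.1% of all genes were) and 0 were lower, with a median log2 fold change of 0.34. With edgeR 0 were called and 11 were higher and 2 lower at an unadjusted *P* under 0.05 (5.26% and 5.22% of all genes were). DESeq2 called 3 higher (1.86% of all genes were). *Hspa8*, the constitutive HSP70, had 458, 429, 431, and 488 CPM with IL-7 and 1064, 768.5, 1207, and 839 CPM with IL-33 (log2 fold change 1.10, 95% CI, 0.69 to 1.51, adjusted *P* = 0.143, edgeR). *Hsp90ab1* had 435, 433, 322, and 471 CPM and 1176, 649, 1241, and 998 CPM (log2 fold change 1.29, 95% CI, 0.76 to 1.81, adjusted *P* = 0.228, edgeR). DESeq2 called both, with adjusted *P* values of 2.01e-05 and 0.00048.

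Of 88 nuclear respiratory chain genes, 67 had a negative and 21 a positive log2 fold change. At an unadjusted *P* under 0.05, 42 were lower and 6 higher (5.22% and 5.26% of all genes were). DESeq2 called 17 lower and 0 higher (2.22% and 1.86% of all genes were), against 0 called by edgeR. *Atp5b*, a catalytic subunit of ATP synthase, was among the 6 higher genes, with a log2 fold change of 0.69 (adjusted *P* = 0.425, edgeR). Of the 88, 16 were lower without overlap (2.93% of all genes were) and 0 were higher, with a median of -0.53. *Uqcrq*, a subunit of complex III, was the gene closest to the cutoff, with 1573, 1379, 1587, and 1343 CPM with IL-7 and 480, 752, 415, and 457 CPM with IL-33 (log2 fold change -1.50, 95% CI, -1.95 to -1.06, adjusted *P* = 0.054, edgeR). The 13 mitochondrially encoded genes all had a negative log2 fold change, with a median of -0.86, and they took 5.05% to 5.27% of the counts of the IL-7 libraries and 2.83% to 4.21% of the IL-33 libraries, and the part of this share in other results was not tested. *mt-Cytb*, another complex III subunit, had 19650, 19850, 22270, and 19670 CPM with IL-7 and 10320, 14520, 8619, and 5645 CPM with IL-33 (adjusted *P* = 0.275, edgeR). Of 80 ribosomal protein genes, 24 were lower without overlap and 1 was higher (2.93% and 3.1% of all genes were), with a median of -0.37. With edgeR 0 were called and 36 were lower at an unadjusted *P* under 0.05, and DESeq2 called 11 lower. Of the mitochondrially encoded genes, edgeR called 0, 7 were lower at an unadjusted *P* under 0.05, and DESeq2 called 5 lower. For both groups, the shares over all genes were 5.22% and 2.22%. *Eif4ebp1*, which encodes an inhibitor of cap-dependent translation, had 591 to 705 CPM with IL-7 and 169 to 343 CPM with IL-33 (log2 fold change -1.34, 95% CI, -1.84 to -0.84, adjusted *P* = 0.143, edgeR).

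**Figure D5:**
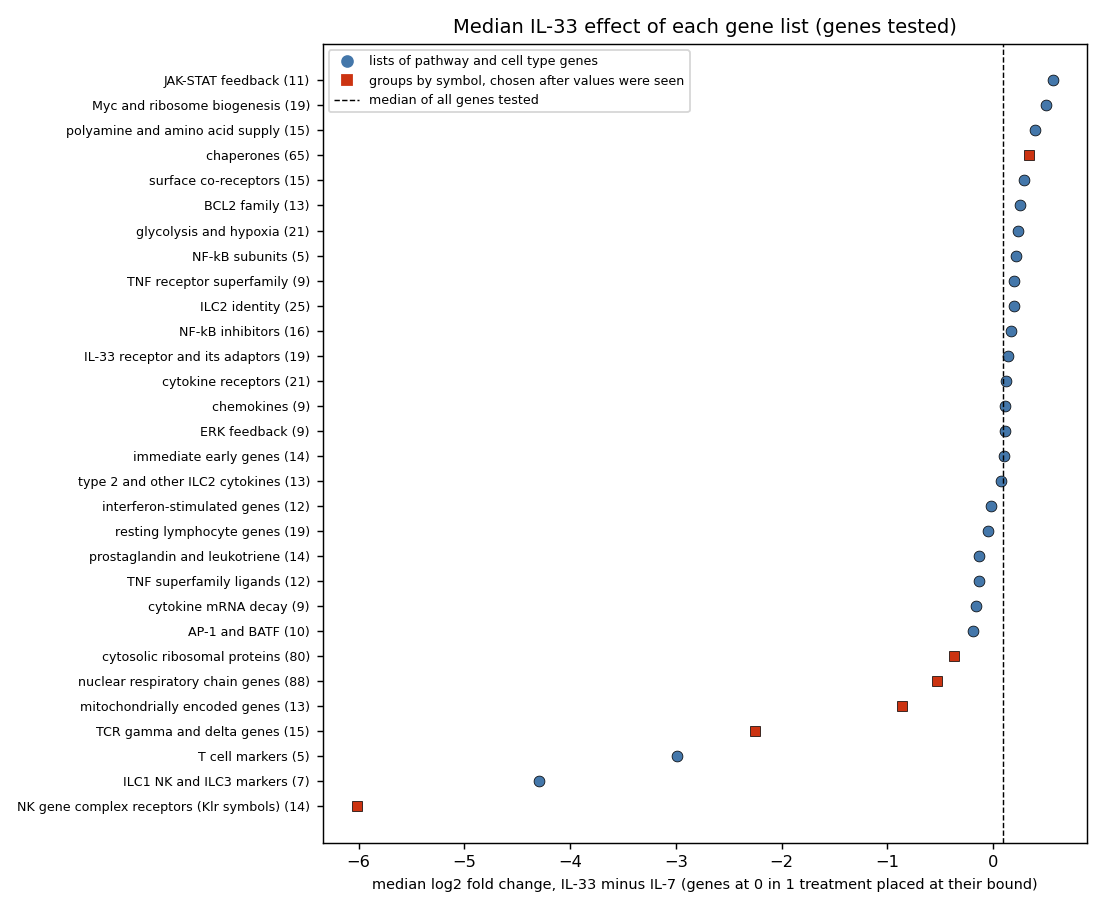
Median log2 fold change (horizontal axis, IL-33 minus IL-7) of each gene list with at least 5 genes tested, with the number tested in parentheses and the median of all genes as a dashed line at 0.09. Genes with 0 counts in 1 treatment were placed at the bound that 3 counts per library allow. Squares are groups chosen after values were seen, and the other lists were chosen with earlier results of these data known. The lowest medians are those of the *Klr* genes (-6.01 over 14 genes) and of the ILC1, NK, and ILC3 markers (-4.30 over 7).

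The effect was finally compared between genotypes, whose libraries are separate. The log2 fold changes of WT and *Pac1*-/- libraries had a Pearson correlation of 0.0936 across all 12980 genes, which are not independent replicates, and of 0.456 across 4954 genes whose mean reached 20 CPM. They had the same sign for 55.6% of all genes and for 61.9% of the more abundant ones. The 6 called genes were lower in both genotypes. For *Cd3d*, the log2 fold changes were -2.59 in WT and -3.95 in *Pac1*-/- libraries, and for *Ms4a4b* -7.83 and -11.29. For *Cish* they were 0.42 and 2.02, for *Il5* 0.31 and 0.10, and for *Nfkbib* 1.05 and 2.13. Other genes had opposite signs, with -0.67 and 1.07 for *Rel*, -0.86 and 2.23 for *Socs1*, -0.28 and 0.90 for *Myc*, and -0.18 and 0.42 for *Tnfaip3*. The difference between genotypes was not tested.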

How the data were processed

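Bulk mRNA-Seq of lung ILC2s was analysed in 8 libraries, 2 for each combination of genotype and treatment, and all 16 columns were mapped to labels. The authors sorted ILC2s into lysis buffer, amplified full-length cDNA, sequenced paired ends, aligned to mm10 with HISAT2, and deposited raw read counts per Ensembl gene. The counting tool, annotation, strand, and handling of multimapping reads are not given in the sources used here. GENCODE M21 gave symbols for 51719 of 51912 identifiers.

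Counts were tested in R 4.3.3 with edgeR 4.0.16 (TMM, filterByExpr by group, quasi-likelihood test, genotype as covariate), with a cutoff of a fold change above 1.5 and an adjusted *P* under 0.05. The standard errors and 95% intervals derive from the F statistics. DESeq2 1.42.0 was an alternative. Tests were checked on simulated data. Total counts and marker sums were compared with exact permutation tests. Promoters came from RefSeq, and motifs were searched on both strands. Named genes were up to 15 genes of each direction with the smallest *P* among called genes without overlap, every called list member, and a fixed set of cytokine, receptor, NF-kB, feedback, and identity genes. Other genes were named after their values were seen. The members and lists were chosen with earlier results of these data known.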

Additional observations from a re-analysis of the deposited data

Results flagged for a closer look

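Of 88 sets of 4 libraries checked for a library apart from the other 3, 8 were noted, and chance gives about 1 in 20. The number given is the gap to the nearest library divided by the range of the 4. With IL-7, *Pac1*-/- replicate 1 was high for *Cd3d* (0.841) and *Pac1*-/- replicate 2 for *Klrd1* (0.835) and *Socs3* (1, the only IL-7 library with any count), and WT replicate 2 was high for *Tnfaip3* (0.984). With IL-33, *Pac1*-/- replicate 2 was low for *Klrg1* (0.87) and high for *Klrk1* (0.849) and *Tnfaip3* (0.899), and WT replicate 1 was high for *Ms4a4b* (0.896). *Pac1*-/- IL-33 replicate 2 also had the fewest counts of the 8, 9665251, and the highest TMM factor, 1.22. Left out in turn, *Pac1*-/- IL-33 replicate 2 moved the log2 fold change from -8.32 to -9.99 for *Klrk1*, from 0.50 to 0.72 for *Klrg1*, and from 0.12 to -0.0712 for *Tnfaip3*. Without WT IL-33 replicate 1, *Ms4a4b* moved from -8.99 to -11.74, and without *Pac1*-/- IL-7 replicate 2, *Socs3* moved from 1.41 to 4.79 and *Klrd1* from -12.33 to -12.13. *Cd3d* moved from -3.27 to -3.07 without *Pac1*-/- IL-7 replicate 1, and *Tnfaip3* to 0.25 without WT IL-7 replicate 2. The values of *Klrd1*, which was at 0 with IL-33, depend on the prior count and are no measured folds. The same holds for the 4.79 of *Socs3*, whose remaining IL-7 libraries were at 0.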

How the results depend on the processing

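The number of calls depended on the test and the filter. The 6 genes called stayed called with RLE size factors, no filter, no genotype covariate, and DESeq2, and after leaving out any library. DESeq2 called 520 genes (237 higher, 283 lower). Without a filter, 201 were called (82 higher, 119 lower). With at least 10 counts in every library, which removes genes at 0, 10 were called (3 higher), 1 of them among the 6. Without the genotype covariate 10 were called, all 10 lower. In 1 fit of all 16 libraries, 2 were called, both lower, 1 of them shared. Leaving out a library gave 12 to 37 calls, 0 to 4 higher and 12 to 33 lower, with more genes passing the filter. The most, 37, came without WT IL-33 replicate 2. The lone library of a group is then assumed to vary like the others. The groups share replicate numbers, and deviations of same-numbered libraries correlated at -0.0193 to 0.0411 between groups. The main fit did not take the numbers to pair the libraries. A correlation over all tested genes cannot decide whether same-numbered libraries share an origin. With IL-33, *Ldha* and *Eno1* were higher in replicate 1 of both genotypes. The replicate block of 4 genotype and number pairs called 0 genes (1046 at an unadjusted *P* under 0.05), and the replicate block with number added to genotype called 4. Within WT or *Pac1*-/- libraries only, an alternative chosen after seeing the data, 0 were called (726 and 1185 at an unadjusted *P* under 0.05, edgeR).

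Some genes changed sign, most of them with a log2 fold change near 0, but also *Rela* (0.54) and *Socs3* (1.41). The upper end of the *Socs3* range below comes from a fit with 0 IL-7 counts and depends on the prior count. Ranges over the 8 settings that leave out a library were -0.0341 to 0.26 for *Areg*, -0.15 to 0.18 for *Il6*, -0.30 to 0.0202 for *Il1rl1*, -0.11 to 0.16 for *Rora*, -0.33 to 0.0537 for *Nfkb1*, -0.0401 to 0.63 for *Nfkb2*, -0.0731 to 0.58 for *Rel*, -0.0419 to 0.76 for *Rela*, -0.0712 to 0.25 for *Tnfaip3*, -0.0947 to 4.79 for *Socs3*, and -0.0891 to 0.0438 for *Icos*. *Il6* was -0.0035 with RLE, -0.000301 with DESeq2, and -0.026 without the genotype covariate, and *Icos* was 0.0021 with at least 10 counts in every library. With summed log2(CPM + 1), the myeloid marker difference was 0.66 and the lung epithelial difference 1.93 (exact permutation *P* = 0.0571). Leaving out a library gave -8.23 to 3.23 CPM for myeloid, 33.5 to 48.4 CPM for lung epithelial, and -22 to -9.43 CPM for B cell markers, whose *P* was 0.0286 without WT IL-7 replicate 1 (exact permutation). The fitted value of *Klra9* was -8.47, and -9.12 without WT IL-33 replicate 2. Levels under 0.178 to 0.31 CPM, 3 counts in a library, lay under the floor and rest on too few counts to be measured at this depth. The causes were not tested.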
